A study of Mus musculus with 8 samples.

Results

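Semaphorins, neuropilins and plexins form one guidance system of ligands and receptors, and their transcripts were examined in neocortical tissue, layers II-IV, taken from mouse pups at postnatal day 5. The members were all genes on the array whose symbol is Sema followed by a digit, starts with Plxn, or is Nrp1 or Nrp2. They numbered 31 of the 19938 genes tested, namely 20 semaphorins, 2 neuropilins and 9 plexins. The tissue was cut out by laser microdissection, and the total RNA of each pup went on its own Affymetrix array of the type Mouse Gene 1.0 ST. All 8 pups carried Bcl6 flox/flox. The 4 control pups were Nex +/+, without Cre, and the 4 mutant pups were Nex Cre/+, with Cre in 1 copy of the Nex locus. Since Nex is the gene now called Neurod6, Cre is made in postmitotic excitatory neurons of the cortex, and glia, vessels and interneurons of the captured tissue keep their floxed Bcl6. By its title, the study concerns a pathway with Bcl6, a zinc-finger repressor, in the death of projection neurons during cortical development.

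Semaphorins are secreted or membrane-bound proteins that share a sema domain and steer growing axons, dendrites and migrating neurons, by repulsion or attraction. Plexins are their signalling receptors, with a cytoplasmic domain that inactivates small Ras-like GTPases. Secreted semaphorins of class 3 mostly bind neuropilins, which have a short cytoplasmic tail and signal through a plexin partner, whereas most membrane-bound semaphorins bind plexins directly. In the postnatal cortex the system is known for guiding callosal and other projection axons, orienting apical dendrites and pruning axon branches and synapses.

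Markers of excitatory neurons were present on all arrays, while the Bcl6 probe set did not check the deletion. Bcl6 read 6.55, 6.58, 6.25 and 6.23 (log2) in controls and 6.61, 6.76, 6.96 and 6.78 in mutants, in order of replicate. It was thus above the controls in every array labelled mutant (limma adjusted p = 0.655), and no position of its probes relative to the deletion was used here. The controls had Neurod6 at 9.22 ± 0.13 (SD, n = 4) and the mutants at 8.83 ± 0.17, with groups that did not overlap (limma adjusted p = 0.535). Tbr1, of the same marker list, had a difference, mutant minus control, of 0.17 ± 0.07 (SE), with all mutants above all controls (limma adjusted p = 0.988). Of 10 markers of excitatory cortical neurons 8 were measured, and their mean level lay between 8.61 and 8.96 in controls and between 8.69 and 8.85 in mutants. Of these 8, 5 were positive and 3 negative in mutants minus controls, with a median of 0.018. Mutant replicates 1 and 4 had Xist at 9.78 and 9.76, and the other 6 arrays at 2.64 to 3.41. "Mutant" here means the arrays labelled so. In this bulk tissue, fewer cells of a type and less RNA per cell cannot be told apart. Every mutant and no control carries Cre in the Neurod6 locus. Loss of Bcl6, Cre itself and the altered Neurod6 copy thus cannot be told apart either, for Neurod6 or for any other gene. Both arrays of high Xist are mutants, so whatever sets them apart, such as the sex of the pups, is unevenly spread over the genotypes. Sex was not a term in the fit.

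No semaphorin, neuropilin or plexin passed the test between genotypes. In limma's fit over all genes, 0 of the 31 were called higher and 0 lower at an adjusted p under 0.05, where 0.0502% and 0.015% of all genes were, and the smallest adjusted p among them was 0.907. Differences, given throughout as mutant minus control on the log2 scale, ran from -0.21 (Nrp2) to 0.21 (Sema5a). Of the 31, 16 were positive and 15 negative, with a median of 0.019 against -0.0096 over all genes. At an unadjusted p under 0.05, Sema5a was the 1 member with a positive difference, and 1.64% of all genes met that rule. Nrp2 and Sema3g were the 2 with a negative one, against 3.28% of all genes. Groups did not overlap in Nrp2 and Sema3g, both with mutants below (1.79% of all genes), and in 0 members with mutants above (0.963% of all genes).

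The precision of the arrays bounds what these differences can be in array signal. The SE of a member's difference lay between 0.063 and 0.20, with a median of 0.080, and over all genes the median was 0.079. In 30 of the 31 members the 95% interval lay within 0.5 of 0 on both sides, a step of 1.41-fold, as it did for 19584 of the 19938 genes. In 22 members it lay within 0.3, a step of 1.23-fold, as it did for 15517 of the 19938 genes. Plxnd1 was the exception to the wider bound, with an interval from -0.35 to 0.53. These intervals are for single genes and are not adjusted for the number of genes. How closely array signal follows the amount of RNA, in dim genes above all, was not tested.

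**Figure D1:**
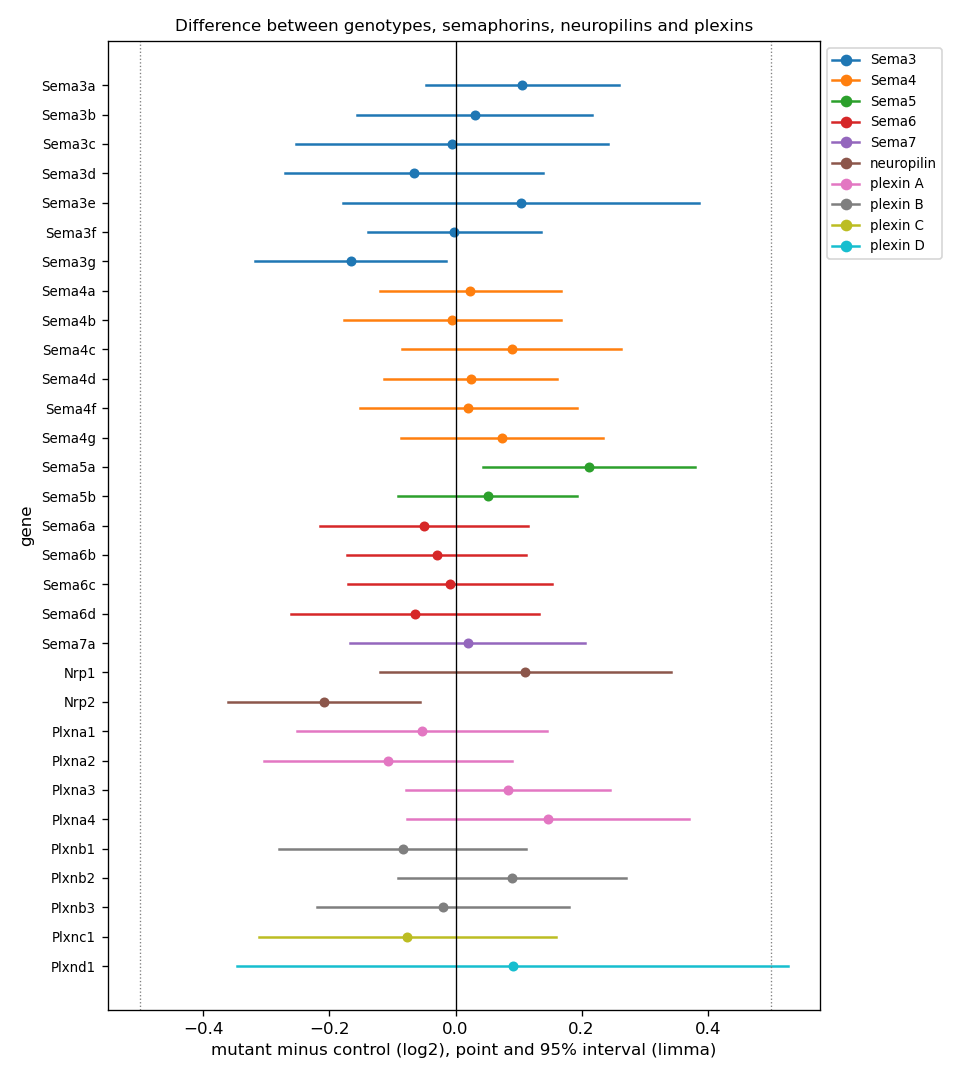
The 31 genes (y axis, coloured by class) by their log2 difference, mutant minus control (x axis; point and limma's 95% interval, n = 4 per group), with dotted lines at -0.5 and 0.5. Intervals of Sema5a, Sema3g and Nrp2 do not reach 0, and only that of Plxnd1, the widest, crosses a dotted line.

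Nrp2 and Nrp1, the 2 neuropilins, are the ligand-binding co-receptors of class 3 semaphorins. Nrp2, which binds Sema3f and Sema3c, read 4.88, 4.90, 4.91 and 4.96 in controls and 4.77, 4.54, 4.72 and 4.79 in mutants, in order of replicate as for every gene below. It lies below the median level of all genes, as Sema3g does. The 4 mutant arrays all lay below the 4 controls, and mutant replicate 2 was lowest. The difference was -0.21 ± 0.07 (SE), or 1.16-fold more in controls, with an exact permutation p of 0.0286 (two-sided), the smallest that 4 against 4 arrays allow. Over all genes the adjusted p in limma was 0.907, so this difference did not pass. It lay between -0.24 and -0.15 when any 1 array was left out, and was -0.29 without both arrays of high Xist (limma adjusted p = 0.998).

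Nrp1, the co-receptor of Sema3a and also of vascular endothelial growth factor, did not follow Nrp2. It read 6.28, 6.79, 6.50 and 6.44 in the controls and 6.75, 6.42, 6.70 and 6.59 in the mutants. The groups overlapped over most of their range, since control replicate 2 was the highest of all 8 arrays and control replicate 1 the lowest. The difference was 0.11 ± 0.11 (SE; exact permutation p = 0.429), with an interval from -0.12 to 0.34. It was 0.037 without control replicate 1 and 0.21 without control replicate 2 (limma adjusted p = 1.0 and 0.931), the latter at an unadjusted p under 0.05, and 0.055 without both arrays of high Xist. Whether Nrp1 and Nrp2 differ from each other in their response was not tested.

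Interneurons are among the cortical cells known to carry neuropilins, and their markers were set beside these values. All 10 interneuron markers were measured, with a mean level of 6.96 to 7.21 in controls and 7.06 to 7.21 in mutants and a median difference of 0.011. Of them 0 passed, and Reln (0.17 ± 0.07, SE) and Calb2 (0.24 ± 0.11) were positive at an unadjusted p under 0.05, as 1.64% of all genes were. Of the 10 markers 7 were positive and 3 negative, as Nrp2 was, among them Gad1, an enzyme of GABA synthesis (-0.06 ± 0.09). Their part in the Nrp2 value was not tested.

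**Figure D2:**
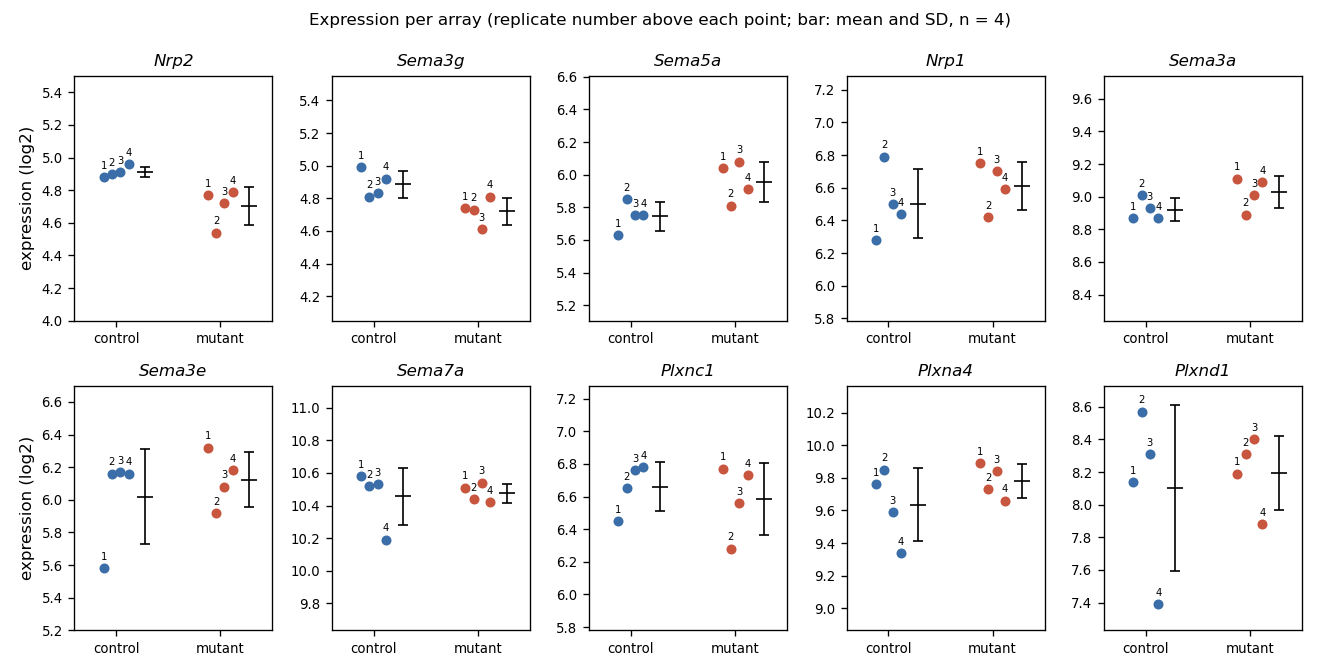
Expression (y axis, log2; every panel spans 1.5 units) of 10 genes by genotype (x axis), with a point and replicate number per array and a bar for the mean and SD (n = 4 per group). Mutant points lie below all control points in Nrp2 and Sema3g, in the latter by less than rounding shows (4.81), and the groups overlap in the other 8 genes, and single arrays stand apart in Sema3e (control 1 at 5.58) and Plxnd1 (control 4 at 7.39).

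The secreted class 3 semaphorins, the ligands of neuropilins, had 7 members on the array, with 3 positive and 4 negative differences and a median of -0.0018. Sema3a, a repellent of cortical axons that also orients apical dendrites, read 8.87, 9.01, 8.93 and 8.87 in controls and 9.11, 8.89, 9.01 and 9.09 in mutants. Mutant replicates 1, 3 and 4 lay above all controls, replicate 3 by less than rounding shows (9.01), and mutant replicate 2 lay among them. Of these, replicates 1 and 4 are the arrays of high Xist. The difference was 0.11 ± 0.07 (SE; exact permutation p = 0.114), and 0.033 without both arrays of high Xist. Sema3f, a ligand of Nrp2 that prunes axon branches and dendritic spines, spanned 6.94 to 7.12 in controls and 7.01 to 7.06 in mutants. Its values by replicate were 7.12, 7.05, 7.00 and 6.94 against 7.06, 7.01, 7.02 and 7.02, and its difference was -0.0018, with an interval from -0.14 to 0.14. The 2 ligand and receptor pairs best known in the cortex, Sema3a with Nrp1 and Sema3f with Nrp2, thus held no member that passed.

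Sema3g, a secreted semaphorin of vascular endothelium, was the class 3 member of smallest p. It read 4.99, 4.81, 4.83 and 4.92 in controls and 4.74, 4.73, 4.61 and 4.81 in mutants. All mutant values lay below all control values, though control replicate 2 and mutant replicate 4 both round to 4.81, and the groups overlapped after quantile normalization or centring. The difference was -0.17 ± 0.07 (SE; limma p = 0.0339 before adjustment, adjusted p = 0.988; exact permutation p = 0.0286). This p before adjustment was not under 0.05 after each array was centred on its median, nor with a trend in limma's prior. The same held without control replicate 1 or 4, without mutant replicate 2 or 3, and without replicate 4 of both genotypes. Without both arrays of high Xist the Sema3g difference was -0.22 (limma adjusted p = 0.998). Of 10 endothelial markers 9 were measured, with a mean level of 6.17 to 6.28 in controls and 6.09 to 6.38 in mutants. At an unadjusted p under 0.05, where 1.64% of all genes were positive and 3.28% negative, 0 of these markers were found, and their median difference was 0.021. Their part in the Sema3g value was not tested.

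Sema3c and Sema3e showed more spread among pups than between genotypes. Sema3c, a ligand of Nrp1 and Nrp2 that attracts callosal axons, read 6.96, 6.86, 6.93 and 7.19 in controls and 6.95, 6.95, 6.71 and 7.31 in mutants. Replicate 4 was highest in both genotypes, and the difference was -0.0057 ± 0.11 (SE). Sema3e, which binds Plxnd1 without needing a neuropilin, read 5.58, 6.16, 6.17 and 6.16 in controls and 6.32, 5.92, 6.08 and 6.18 in mutants. Control replicate 1 stood apart from the other 3 controls. The difference of 0.10 ± 0.13 (SE) became -0.042 without that array. Sema3b (0.03) and Sema3d (-0.07), the other class 3 members, had values of 4.36 to 5.17 over all 8 arrays and overlapping groups.

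Promoters were searched for the motif that BCL6 is known to bind, because the study targets that repressor. RefSeq windows of 300 bases (GRCm38.p6; 250 bases before each gene start and 50 after) matched 26 of the 31 members, in 37 windows. The letters TTCCTAGAA, on either strand, were in 1 of these windows and in 0.411% of all 32851 windows. The looser TTCCNNGAA, which contains that motif, was in the same 1 window and in 4.81% of all windows. The match lies in Sema3e, on the plus strand, and begins at base 42 counted from the gene start. The stretch is shown 5′ to 3′ with the motif in capitals because it is the 1 match among the members, at chr5:14025296-14025325.

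Sema3e: aggcacgtgggctggagacacTTCCTAGAA

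Sema3e itself, with a difference of 0.10 ± 0.13 (SE, n = 4 per group), did not differ between genotypes beyond the spread of its arrays. A match of letters is a description and not evidence of binding, and binding of BCL6 was not measured here.

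The membrane-bound classes 4 to 7 had 13 members, and 1 of them, Sema5a, was at an unadjusted p under 0.05. Sema5a, a transmembrane semaphorin with thrombospondin repeats that binds plexins and proteoglycans, read 5.63, 5.85, 5.75 and 5.75 in controls and 6.04, 5.81, 6.08 and 5.91 in mutants. Mutant replicates 1, 3 and 4 lay above all controls, and mutant replicate 2 lay below control replicate 2. After quantile normalization all mutants lay above all controls. The difference was 0.21 ± 0.08 (SE), or 1.16-fold more in mutants (limma p = 0.0176 before adjustment, adjusted p = 0.932; exact permutation p = 0.0571). It lay between 0.17 and 0.26 when any 1 array was left out, and its unadjusted p was 0.0565 without control replicate 1, 0.059 without mutant replicate 3 and 0.0762 without both arrays of high Xist. Sema5b, its paralog, read 5.73, 5.61, 5.54 and 5.69 in controls and 5.70, 5.68, 5.73 and 5.65 in mutants, with a difference of 0.05 ± 0.07 (SE).

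Sema5a is known in cells of the oligodendrocyte lineage as well as in neurons. Of 11 markers of that lineage 10 were measured, with a mean level of 5.67 to 5.78 in controls and 5.74 to 5.83 in mutants and a median difference of 0.050. Bcas1, of newly formed oligodendrocytes, read 0.24 ± 0.07 (SE) and Cnp, a myelin enzyme, 0.23 ± 0.07. Both were at an unadjusted p under 0.05 (1.64% of all genes) with mutants above all controls (0.963% of all genes). Neither passed over all genes (limma adjusted p = 0.759 and 0.844). Of the 10 markers 7 were positive, as Sema5a was, and 3 negative, among them the myelin gene Mbp (-0.10 ± 0.06). Their part in the Sema5a value was not tested.

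Class 4 and class 6 members, transmembrane ligands of B and A plexins for the most part, lay close to 0. Differences in the 6 class 4 genes ran from -0.0050 to 0.089 and in the 4 class 6 genes from -0.064 to -0.0090, and 0 of these 10 were at an unadjusted p under 0.05. Sema4c, which binds Plxnb2, read 7.28, 7.30, 7.23 and 7.04 in controls and 7.45, 7.29, 7.27 and 7.19 in mutants. It had the smallest p of its class, with a difference of 0.09 ± 0.08 (SE). Sema4d, the ligand of Plxnb1 that promotes inhibitory synapses, read 6.60, 6.59, 6.53 and 6.55 in controls and 6.69, 6.58, 6.53 and 6.57 in mutants. Its difference was 0.02 ± 0.06 (SE), and its other probe set gave 0.055. Sema4a (0.02), Sema4b (-0.0050), Sema4f (0.02) and Sema4g (0.07) all had overlapping groups.

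Of class 6, Sema6a, a ligand of Plxna2 and Plxna4, read 8.72, 8.88, 8.94 and 8.85 in controls and 8.79, 8.66, 8.94 and 8.80 in mutants, a difference of -0.05 ± 0.08 (SE). Sema6d, which binds Plxna1, read 7.39, 7.55, 7.44 and 7.23 in controls and 7.49, 7.14, 7.42 and 7.31 in mutants, a difference of -0.06 ± 0.09. In both genes mutant replicate 2 was the lowest mutant. Sema6b (-0.03) and Sema6c (-0.0090) differed by less than their SE, and the 2 probe sets of Sema6b held identical values on all 8 arrays. Sema7a, a lipid-anchored semaphorin that acts through integrins and Plxnc1 and promotes axon growth, read 10.58, 10.52, 10.53 and 10.19 in controls and 10.51, 10.44, 10.54 and 10.42 in mutants. Control replicate 4 was the lowest of the 8 arrays, and the difference was 0.02 ± 0.09 (SE), or -0.068 without that array.

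The 9 plexins, the signalling receptors, had 4 positive and 5 negative differences, with a median of -0.020, and 0 were at an unadjusted p under 0.05 in limma. Among A plexins, the partners of neuropilins and receptors of class 6 ligands, Plxna4 had the smallest p. It read 9.76, 9.85, 9.59 and 9.34 in controls and 9.89, 9.73, 9.84 and 9.66 in mutants, a difference of 0.15 ± 0.10 (SE; exact permutation p = 0.314). Only mutant replicate 1 lay above all controls. Plxna2, a receptor of Sema6a, read 8.68, 8.53, 8.52 and 8.25 in controls and 8.50, 8.31, 8.44 and 8.30 in mutants, a difference of -0.11 ± 0.09 (SE). The mutants lay below control replicates 1 to 3 and above control replicate 4.

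Plxna1 read 10.14, 10.19, 10.01 and 9.78 in controls and 10.06, 9.90, 10.06 and 9.89 in mutants. Its difference was -0.05 ± 0.09 (SE). Plxna3, which is X-linked and partners Nrp2 in Sema3f signalling, read 7.74, 7.80, 7.74 and 7.50 in controls and 7.81, 7.71, 7.79 and 7.80 in mutants. Its difference was 0.08 ± 0.07, and 0.056 without both arrays of high Xist. In all 4 A plexins control replicate 4 was the lowest of the controls.

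Among B plexins, receptors of class 4 ligands, Plxnb1 read 7.06, 7.17, 6.84 and 6.90 in controls and 6.81, 6.94, 7.08 and 6.80 in mutants, a difference of -0.08 ± 0.09 (SE). Plxnb2, of progenitors and glia as well as neurons, read 7.72, 7.80, 7.60 and 7.46 in controls and 7.78, 7.60, 7.82 and 7.73 in mutants, a difference of 0.09 ± 0.08. Both ranges overlapped almost fully between genotypes. Plxnb3, of the oligodendrocyte lineage, spanned 4.15 to 4.53 with a difference of -0.02 ± 0.09. Plxnc1, the plexin that binds Sema7a, read 6.45, 6.65, 6.76 and 6.78 in controls and 6.77, 6.28, 6.56 and 6.73 in mutants. Its lowest arrays were mutant replicate 2 and control replicate 1, and its difference was -0.08 ± 0.11 (SE). It was 0.024 without mutant replicate 2, -0.15 without control replicate 1 and -0.24 without both arrays of high Xist (limma adjusted p = 0.998).

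Plxnd1, the receptor of Sema3e in vessels and neurons, varied more among controls than any other member. It read 8.14, 8.57, 8.31 and 7.39 in controls, an SD of 0.51, where the other members' control SD was at most 0.29. In mutants it read 8.19, 8.31, 8.40 and 7.88. The array of replicate 4 was lowest in both genotypes. The difference was 0.09 ± 0.20 (SE), and it was -0.15 without control replicate 4 (limma adjusted p = 0.999), 0.25 without control replicate 2 and 0.25 without both arrays of high Xist.

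Control replicate 4 was low in most plexins. It was the lowest control in 7 of the 9 plexins and in 15 of the 31 members (48.4%), while it was the lowest control in 28.8% of all genes. The median deviation of the plexins from their own means over 8 arrays was -0.23 there, against 0.0001 for all genes. Control replicate 2 was the highest control in 7 plexins and in 16 members (51.6%, against 34.7% of all genes). In mutants the lowest array was replicate 2 in 16 members (51.6%, against 29.1% of all genes) and replicate 4 in 10 (32.3%, against 23.3%). Mutant replicate 1 was the highest in 15 members (48.4%, against 31.2%) and the lowest in 1 (3.23%, against 24.1%), and mutant replicate 2 was the highest in 0, against 22.4% of all genes. Members share tissue, array and normalization, so these counts describe arrays and are not independent.

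**Figure D3:**
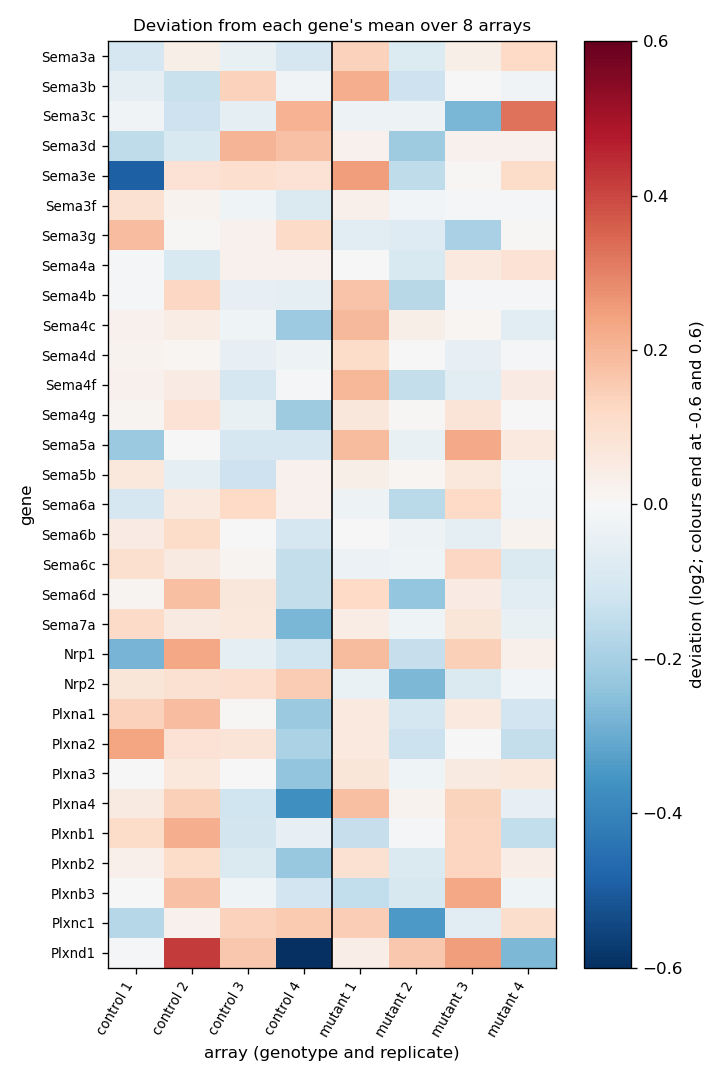
Deviation of each array (x axis) from a gene's mean over 8 arrays (colour, log2, ending at -0.6 and 0.6) for the 31 genes (y axis, ordered by class). Control 4 is blue in most plexin rows, down to Plxnd1, and mutant 2 has no row in which it is the highest mutant.

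Rorb, a transcription factor gene of layer IV neurons, was set beside the plexins after its values were seen. It read 10.48, 10.50, 10.32 and 9.35 in controls and 10.39, 10.33, 10.50 and 9.81 in mutants, so that replicate 4 was lowest in both genotypes, as for Plxnd1. Cux1, also an excitatory neuron marker, was likewise lowest in control replicate 4 (9.16) and in mutant replicate 4 (9.37). Neurod6, Tbr1 and Slc17a7, of that same marker list, were not lowest in replicate 4 of both genotypes. The part of Rorb, or of layer IV neurons, in the plexin values was not tested. The difference of Plxna2 was -0.047 without control replicate 1. Without control replicate 4 it was -0.19 (limma adjusted p = 0.999, at an unadjusted p under 0.05), that of Plxna1 -0.14 and that of Plxna4 0.049. The differences of Plxna3 and Plxnb2 were 0.019 and 0.029 without it, against 0.083 and 0.089 with it. Without both arrays lowest in Rorb no member passed, and the differences were 0.23 for Sema5a, -0.22 for Nrp2 and -0.044 for Plxnd1.

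**Figure D4:**
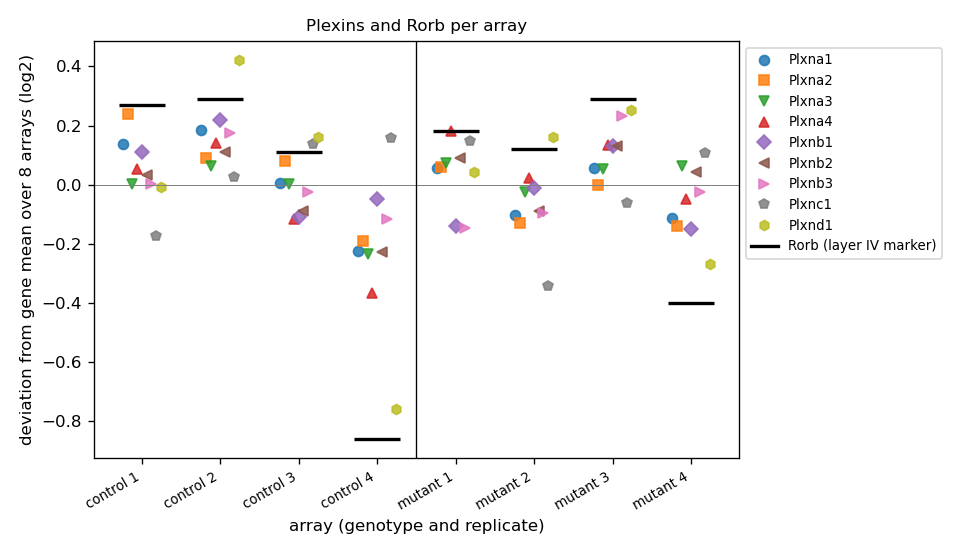
Deviation from a gene's mean over 8 arrays (y axis, log2) for the 9 plexins (coloured symbols) and Rorb (black bar) on each array (x axis). In control 4 Plxnd1 and Rorb lie far below 0 and 7 of the 9 plexins are at their lowest control value, and in mutant 4 Plxnd1 and Rorb are at their lowest mutant value.

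Co-receptors, other ligands and intracellular partners of the system were examined as 2 lists. Of 20 co-receptors and other ligands, all measured, 0 passed in either direction, the differences were positive in 12 and negative in 8, and their median was 0.0091. Cd72, a receptor of Sema4d on B cells, had the smallest p (-0.24 ± 0.10, SE; limma adjusted p = 0.996, exact permutation p = 0.0857), and was the 1 gene of the list at an unadjusted p under 0.05 in limma (1.64% of all genes were positive and 3.28% negative at that p). The next were Itga1, an integrin subunit of the family that binds Sema7a (0.19 ± 0.10), Trem2, a microglial partner of Plxna1 (-0.12 ± 0.07), and Flt1, a receptor of vascular endothelial growth factor that is also among the endothelial markers (0.14 ± 0.08). Of 34 effectors 32 were measured and 0 passed in either direction, with 0 at an unadjusted p under 0.05 in limma. Their median was -0.0049, and every difference lay between -0.073 and 0.15. Rnd2 and Rnd1, small GTPases that bind plexins, read 0.15 ± 0.09 and -0.07 ± 0.07. Mical1, an actin oxidase downstream of A plexins, read 0.08 ± 0.07, and Rap1b, a GTPase that plexins inactivate, -0.06 ± 0.07.

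The remaining marker lists, of glia and of cells of vessels and meninges, had no gene past the threshold either. Median differences were 0.033 for the 10 astrocyte markers, -0.11 for 9 of 10 microglia markers and -0.0036 for the 10 mural and meningeal markers. Fcer1g (-0.29 ± 0.10, SE) and P2ry12 (-0.27 ± 0.10) of microglia were negative at an unadjusted p under 0.05 (3.28% of all genes), as was Dcn of meningeal fibroblasts (-0.55 ± 0.25). Dcn read 4.61, 3.31, 3.20 and 3.54 in controls and 3.32, 3.08, 3.34 and 2.72 in mutants (exact permutation p = 0.171). Foxc1 of the same list was positive (0.24 ± 0.08) at an unadjusted p under 0.05 (1.64% of all genes), with all mutants above all controls (0.963% of all genes). Microglia markers had a mean level of 4.52 to 4.77 in controls and 4.48 to 4.57 in mutants, and their part in the values of Trem2 was not tested. Of the 31 members 4 lie on chromosome 6, which carries Neurod6 and so the Cre allele (Plxna1, Plxna4, Plxnd1 and Sema4f), and 0 of them within 10 Mb of it in the gene order of GRCm38.p6.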

How the data were processed

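The authors deposited 1 log2 expression value per probe set and array (35556 probe sets, 8 arrays). Analysis with BRB-ArrayTools is named per the labels' design text. How background was corrected and probes were normalized and summarized is not stated in those sources. That values are log2 was read from their range (0.74 to 13.63, above 11.09, the natural log of a 16-bit scanner's maximum). Array medians lay between 4.94 and 5.01. The table has no detection calls, so no gene could be called undetected, and the number of arrays limits the precision.

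Probe sets naming 1 gene were used (21789 of 35556), with symbols updated through Entrez identifiers, and per gene the one with the highest mean, which left 19938 genes. Of the 31 members, 26 lay at or above the median level of all genes. The genotypes were compared by a limma fit (version 3.58.1, R 4.3.3; genotype as the only term, two-sided, Benjamini-Hochberg over all genes, threshold 0.05). The fit was tested on simulated data. Exact permutation tests used all 70 splits of the 8 arrays.

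The members and lists were chosen with earlier results of these data known. Array values are given for 22 members: those past the threshold or at an unadjusted p under 0.05 or with groups that do not overlap, the smallest p of each class, and 20 known in the cortex. The 4 genes of smallest p in each pathway list were named. Levels are not compared between genes, whose probes differ. Alternatives were quantile normalization, median centring, a filter on dim genes, the mean of probe sets, a trend in the prior, the replicate block, and leaving out arrays. Protein sequences were not used here.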

Additional observations from a re-analysis of the deposited data

Results flagged for a closer look

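Among 44 groups of 4 arrays (22 genes given array by array, in both genotypes), 1 held an array far from the others by Dixon's test at the 95% level, and chance gives about 1 in 20. Sema3e read 5.58 in control replicate 1 and 6.16 to 6.17 in the other 3 controls.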

How the results depend on the processing

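Under all 16 alternatives the members called over all genes stayed at 0 in limma, and the smallest adjusted p was 0.786. Nrp2 and Sema3g stayed negative and Sema5a positive in every one run on them. At an unadjusted p under 0.05, negative members numbered 2 as deposited, 1 after median centring or with a trend in the prior (Nrp2), 0 among genes at or above the median level, which leaves out Nrp2 and Sema3g, and 1 to 2 when 1 array was left out (1 without mutant replicate 2, without mutant replicate 3 or without control replicate 1; without control replicate 4 they were Nrp2 and Plxna2). Positive members numbered 1 as deposited, 0 to 2 when 1 array was left out (0 without control replicate 1 or mutant replicate 3, 2 without control replicate 2) and 0 without both arrays of high Xist. Without both arrays lowest in Rorb, an alternative chosen after seeing the data, 1 was negative. Shares of all genes at an unadjusted p under 0.05 are given only for the values as deposited (1.64% positive, 3.28% negative). Counts at that p under different settings are therefore not to be compared with each other. Members whose groups do not overlap numbered 2, against 1 after centring, 0 with the filter and 2 to 4 when 1 array was left out (4 without mutant replicate 2). After quantile normalization such members also numbered 2, but were Nrp2, with mutants below, and Sema5a, with mutants above (2.78% of all genes did not overlap). Of all genes 2.75% did not overlap as deposited and 5.03% to 5.45% with 1 array left out (5.14% without mutant replicate 2), so these counts are not to be compared with each other. The median difference, 0.019, lay between -0.029 and 0.033 over all alternatives.

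Differences of other sign, none of them past the threshold, were Sema3c at 0.0080 and Sema3f at 0.0119 after centring, Plxnb1 at 0.019, Sema3e at -0.021 and Sema4d at -0.016 without both arrays of high Xist, and Plxnd1 at -0.044 and Sema7a at -0.049 without both arrays lowest in Rorb. When 1 array was left out, ranges that crossed 0 were -0.14 to 0.0001 for Plxna1, -0.15 to 0.024 for Plxnc1, -0.15 to 0.25 for Plxnd1, -0.12 to 0.084 for Sema3c, -0.042 to 0.17 for Sema3e, -0.032 to 0.029 for Sema3f, -0.0098 to 0.046 for Sema4d, -0.12 to 0.0031 for Sema6d and -0.068 to 0.061 for Sema7a. The cause was not tested.

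The labels do not say that replicate numbers pair pups. Over genes, deviations from the group means of same-numbered arrays correlated at -0.012, 0.029, 0.04 and 0.16 for replicates 1 to 4. The highest correlation of each control with a mutant of another number was 0.07, 0.071, 0.047 and -0.011, in the same order. With the replicate block, 1 member was positive and 2 negative at an unadjusted p under 0.05, as without it, and limma's adjusted p was 0.911 for both Sema3g and Sema5a.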
